A study of Danio rerio with 6 samples.

Results

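The midbrain and hindbrain of the vertebrate embryo are laid out by a small set of transcription factors and signals, of which 6 zebrafish genes were followed here in neural crest (NC) cells with high and low Wnt reporter activity: otx2b, gbx2, pax2a, eng2a, fgf8a and egr2b. They were taken by Ensembl identifier, and all 6 were found among the 32057 genes listed. The gene table used here gives these identifiers the family symbols OTX2, GBX2, PAX2, EN2, FGF8 and EGR2, so the paralog letters are those of the list that defined the set.

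The cells came from embryos at 24 h post-fertilization (hpf) carrying both Tg(7XTCF:nls-mCherry)ia5, in which TCF binding sites drive a nuclear red protein where canonical Wnt signaling is active, and Tg(-7.2sox10:EGFP)ir937, in which sox10 regulatory DNA drives EGFP. EGFP+ cells were sorted into a high-Wnt (mCherry+) and a low-Wnt (mCherry−) population, with 3 libraries of each, and both populations carried both transgenes and were untreated. The -7.2sox10 sequence is also active in the otic epithelium, so EGFP does not mark NC cells alone. The labels do not say whether replicates came from separate clutches, so p-values measure only the spread between these libraries.

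In the neural plate, Otx2 marks the forebrain and midbrain and Gbx2 the anterior hindbrain, and the border where they meet becomes the isthmic organizer. There, Pax2 and Engrailed factors maintain the organizer and Fgf8 is the signal it secretes. Further back, Egr2 (Krox20) specifies rhombomeres 3 and 5. Canonical Wnt signaling posteriorizes the neural plate and is itself active at the organizer. Cranial NC cells arise along this axis and leave it in streams, and some of these genes have further domains outside the brain, such as pax2a in the ear.

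The values were TPM, a length-corrected share of each library's transcripts that is scaled to the same total in every library and keeps no sequencing depth. One library stood apart. A TPM of 1 or more was reached by 14283 to 14417 genes in high-Wnt libraries and by 13791, 13481 and 9230 genes in low-Wnt replicates 1, 2 and 3. Among the 3123 tested genes at 10 to 30 TPM in low-Wnt replicates 1 and 2, the TPM in replicate 3 was a median of 0.21 times theirs. The results of the 6 genes are therefore given with and without it. NC markers were present in every library, with sox10 at 243.7, 342.7 and 310.0 TPM in high-Wnt cells and 258.6, 239.6 and 72.9 TPM in low-Wnt cells. Markers of neighbouring tissues were present too, including the otic gene oc90, with 24.8 to 32.9 TPM in high-Wnt libraries against 16.9 to 84.8 TPM in low-Wnt libraries, and the muscle gene actc1b, with 1006 to 1687 TPM in high-Wnt libraries against 389.7 to 543.0 TPM in low-Wnt libraries. In these bulk libraries, fewer cells expressing a gene and less RNA per cell cannot be told apart.

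The test was limma on log2(TPM + 1), and a gene was called differentially expressed (DE) where its p-value, adjusted over all tested genes by the Benjamini-Hochberg method, was under 0.05. The filter, a TPM of 1 or more in 3 libraries (2 in the smaller fit), kept 5 of the 6 genes and left out eng2a. With all 6 libraries none of the 5 was DE by limma, where 0.367% of the 14163 tested genes were, and 2 of them, otx2b and egr2b, had unadjusted p-values under 0.05, as did 14.2% of tested genes. Once low-Wnt replicate 3 was left out, otx2b was higher and fgf8a was lower in high-Wnt cells, while gbx2, pax2a and egr2b did not pass. The filter kept otx2b through its high-Wnt libraries alone, so its call adds no support. In that fit 12.7% of the 15000 tested genes were DE, 7.17% higher and 5.57% lower. Tested genes as a whole had a median log2 fold change of 0.51 with all 6 libraries and 0.05 without low-Wnt replicate 3. The fits share 5 libraries. Both calls were lost when any one high-Wnt library was left out as well, which leaves 2 libraries against 2.

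**Figure D1:**
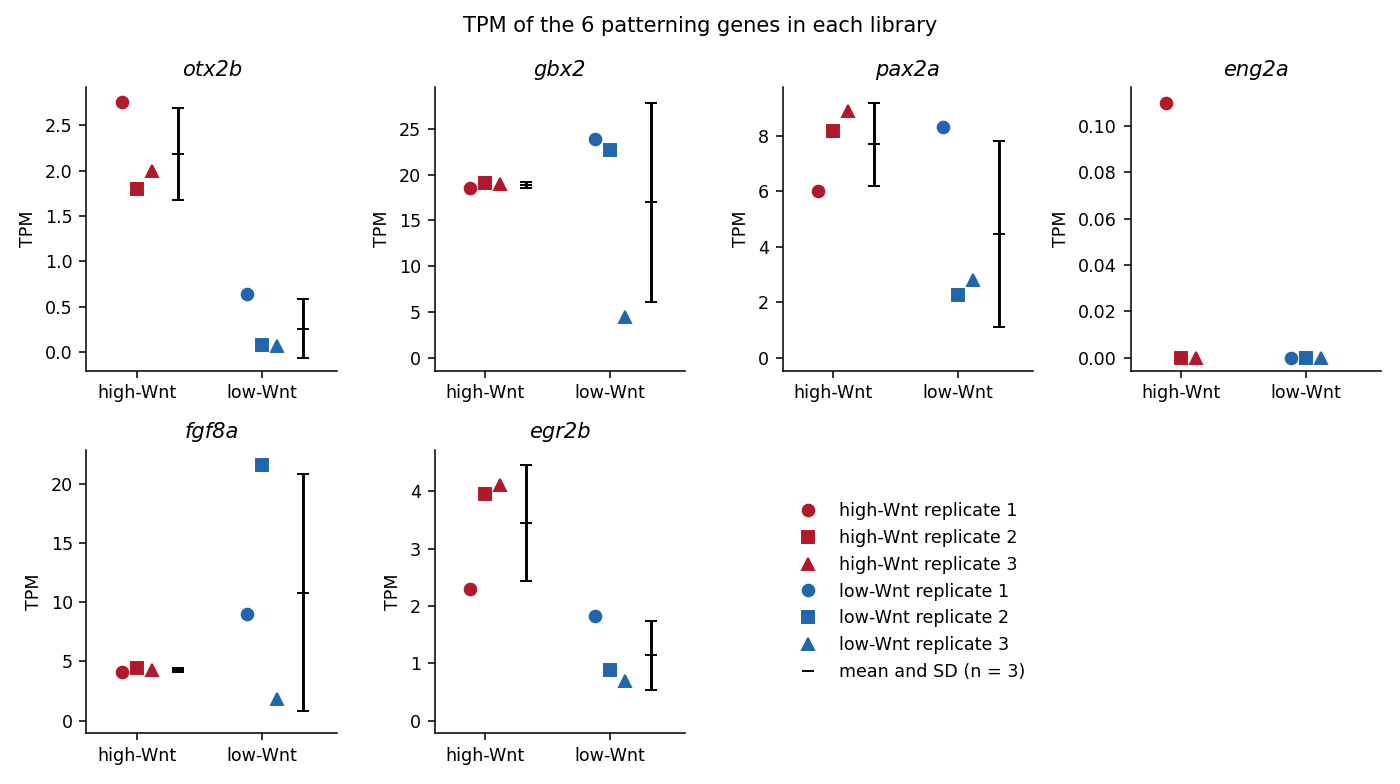
TPM (y axis, one scale per gene, linear) of the 6 genes in the 3 high-Wnt libraries (red, left) and 3 low-Wnt libraries (blue, right), with marker shapes for replicates 1, 2 and 3 and black bars for the mean and SD of 3 libraries. No mean is drawn for eng2a, which was listed at 0 in 5 libraries. The otx2b and egr2b libraries of the populations do not overlap, and low-Wnt replicate 3 lies below every other library for gbx2 and fgf8a.

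The anterior member, otx2b (ENSDARG00000011235), encodes a homeodomain factor required for forebrain and midbrain identity. It had 2.75, 1.80 and 1.99 TPM in high-Wnt replicates 1, 2 and 3, against 0.64, 0.08 and 0.07 TPM in low-Wnt replicates 1, 2 and 3. Every high-Wnt library lay above every low-Wnt library, and only the high-Wnt libraries reached 1 TPM, so the gene entered the test through them alone. The mean was 2.18 ± 0.50 TPM in high-Wnt and 0.26 ± 0.33 TPM in low-Wnt cells (SD, n = 3 each). All 6 libraries together gave a log2 fold change of 1.35 (standard error 0.31, limma adjusted p = 0.108). The fit without low-Wnt replicate 3 gave 1.25 (standard error 0.33, limma adjusted p = 0.045), higher than the value of 94.8% of the tested genes. In that fit the call was lost after quantile normalization (log2 fold change 0.82, limma adjusted p = 0.109), with a pseudocount of 0.1 (limma adjusted p = 0.066) with no filter on low values (limma adjusted p = 0.080) and when low-Wnt replicate 2 was left out too. A two-sided exact permutation test of the 6 values gave p = 0.1, the smallest that 3 libraries against 3 allow. Since otx2b was kept only through its high-Wnt level, its separation, this p-value and the high place of its fold change add no support. The same holds for its limma call.

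Markers of several cell types, neural progenitors among them, lay higher in high-Wnt cells along with otx2b. Of 6 SoxB1 genes listed for them, 4 rose without low-Wnt replicate 3 and 2 did not pass the test. Their median log2 fold change was 1.35 over the 6, against 0.05 for all tested genes. Among the 4, a SOX1 gene (ENSDARG00000008131) reached 1 TPM only in high-Wnt libraries, so it was tested through them alone and adds no support. The median of 1.35 includes this gene, whose log2 fold change was 1.70. The summed level of these 6 genes was 116.7 to 142.7 TPM in high-Wnt libraries against 15.3 to 51.5 TPM in low-Wnt libraries. Among them sox2 had 34.4, 37.2 and 35.9 TPM in high-Wnt cells, against 10.7, 11.1 and 3.01 TPM in low-Wnt cells. Of 4 neuronal markers 2 rose, and of 4 muscle and 4 epidermis markers 3 each rose. Of 6 NC markers 3 rose and of 3 blood markers 1 rose, where 7.17% of all tested genes rose. The muscle gene myf5, counted here, also reached 1 TPM only in high-Wnt libraries and was tested through them alone. With all 6 libraries no marker of these lists was DE by limma. The summed muscle level, nearly all of it actc1b, was 1023 to 1699 TPM in high-Wnt libraries against 393.7 to 546.4 TPM in low-Wnt libraries. The summed epidermis level was 1533 to 1800 TPM in high-Wnt libraries against 414.8 to 732.6 TPM in low-Wnt libraries. The summed NC level was 871.0 to 1075 TPM in high-Wnt libraries against 459.8 to 670.1 TPM in low-Wnt libraries. In low-Wnt replicate 3, twist1a held 335.6 of the 459.8 TPM. The summed blood level was 328.4 to 462.0 TPM in high-Wnt libraries against 241.9 to 526.7 TPM in low-Wnt libraries. Such sums mostly reflect the most abundant genes of a list. No matched marker of these groups was at 0 in every library. The part of these markers in the otx2b difference was not tested.

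Posterior to otx2b, gbx2 (ENSDARG00000002933) encodes the homeodomain factor of the anterior hindbrain that opposes Otx2 at the border. It was the most abundant of the 6 in high-Wnt cells, with 18.6, 19.1 and 18.9 TPM, against 23.9, 22.6 and 4.46 TPM in low-Wnt replicates 1, 2 and 3. The high-Wnt libraries lay within 0.57 TPM of each other, below low-Wnt replicates 1 and 2 and above replicate 3. With all 6 libraries the log2 fold change was 0.43 (95% interval -1.0 to 1.86, limma adjusted p = 0.723). The sign changed when low-Wnt replicate 3 was left out, to -0.29 (95% interval -0.65 to 0.07, limma adjusted p = 0.25), and with all 6 libraries it changed to -0.077 after quantile normalization, so its direction rests on 1 library and on the scaling. In low-Wnt replicate 3, gbx2 stood at 0.19 times its mean in low-Wnt replicates 1 and 2, near the median of 0.21 for tested genes of that level. The same value was 0.12 for fgf8a, 0.53 for pax2a, 0.51 for egr2b and 0.19 for otx2b. The medians for tested genes of their levels were 0.21, 0.19, 0.25 and 0.25.

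Of the organizer genes, fgf8a (ENSDARG00000003399), which encodes the secreted signal of the isthmus, was lower in high-Wnt cells once low-Wnt replicate 3 was left out. It had 4.07, 4.44 and 4.25 TPM in high-Wnt replicates 1, 2 and 3, against 9.05, 21.6 and 1.81 TPM in low-Wnt replicates 1, 2 and 3. The high-Wnt libraries were close together, whereas the low-Wnt libraries spread on both sides of them. In that fit the mean was 4.25 ± 0.19 TPM (SD, n = 3) in high-Wnt cells, against 15.3 ± 8.89 TPM (SD, n = 2) in low-Wnt cells. This was a log2 fold change of -1.52 (standard error 0.34, limma adjusted p = 0.028), and 0.853% of the tested genes had a lower one. With all 6 libraries it was -0.71 (standard error 0.75, limma adjusted p = 0.631). Leaving out low-Wnt replicate 2 as well as replicate 3 gave -0.94, so the size depended on both, but low-Wnt replicate 1 was then alone in its group. With only low-Wnt replicate 3 left out, the call was lost with no filter on low values (limma adjusted p = 0.071). It was also lost with the replicate block (limma adjusted p = 0.075). The ear also expresses fgf8a. Of 8 otic markers tested in the same fit 1, dlx3b, rose and 1, oc90, fell in high-Wnt cells. Among all tested genes 7.17% rose and 5.57% fell. The values of dlx3b were 48.6, 50.0 and 47.2 TPM in high-Wnt libraries, against 29.5, 32.5 and 17.05 TPM in low-Wnt libraries. Those of oc90 were 32.9, 26.2 and 24.8 TPM in high-Wnt libraries, against 59.2, 84.8 and 16.9 TPM in low-Wnt replicates 1, 2 and 3. The log2 fold changes in that fit were 0.63 for dlx3b and -1.32 for oc90 (limma adjusted p = 0.026 and 0.008). The summed otic level was 181.0 to 186.5 TPM in high-Wnt libraries against 164.4 to 211.8 TPM in low-Wnt libraries. Much of it was dlx3b and dlx4b, and in low-Wnt replicate 3 dlx4b held 85.4 of the 164.4 TPM. Without that library, oc90, otomp and tecta lay lower in every high-Wnt library, and dlx3b, dlx4b and hmx3a lay higher. Among all tested genes, 22.6% lay apart in the lower and 25.1% in the higher direction. The part of these markers in the fgf8a difference was not tested.

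The paired-domain factor gene pax2a (ENSDARG00000028148), needed for the isthmus in zebrafish and also active in the ear and kidney, did not differ beyond the spread of the libraries. Its values were 6.03, 8.18 and 8.90 TPM in high-Wnt cells, against 8.32, 2.27 and 2.79 TPM in low-Wnt cells. Low-Wnt replicate 1 fell within the high-Wnt range. The log2 fold change was 0.82 (95% interval -0.44 to 2.08, limma adjusted p = 0.509) with all 6 libraries and 0.64 (95% interval -0.34 to 1.62, limma adjusted p = 0.34) without low-Wnt replicate 3. Its Engrailed partner eng2a (ENSDARG00000026599) was listed at 0.11 TPM in high-Wnt replicate 1 and at 0 in the other 5 libraries, and was not tested.

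In the hindbrain, the zinc finger gene egr2b (ENSDARG00000042826), the zebrafish krox20, had 2.29, 3.95 and 4.11 TPM in high-Wnt cells, against 1.83, 0.89 and 0.69 TPM in low-Wnt cells. The populations did not overlap, although high-Wnt replicate 1 and low-Wnt replicate 1 lay close together. TPM did not overlap for 28.0% of all genes tested with 6 libraries, 22.4% with high-Wnt cells above. Of the 5 tested members this held for egr2b and otx2b. Since otx2b was tested through its high-Wnt level alone, its separation follows from the filter and adds no support. With low-Wnt replicate 3 left out, TPM did not overlap for 4 of the 5, all but pax2a and again counting otx2b. Among all tested genes the share was 47.8% (25.1% with high-Wnt cells above and 22.6% below). The log2 fold change of egr2b was 1.07 (95% interval 0.15 to 1.99, limma adjusted p = 0.287) with all 6 libraries and 0.92 (95% interval 0.14 to 1.69, limma adjusted p = 0.107) without low-Wnt replicate 3, so it did not pass in either fit. A two-sided exact permutation test of its 6 values gave p = 0.1, again the smallest possible.

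**Figure D2:**
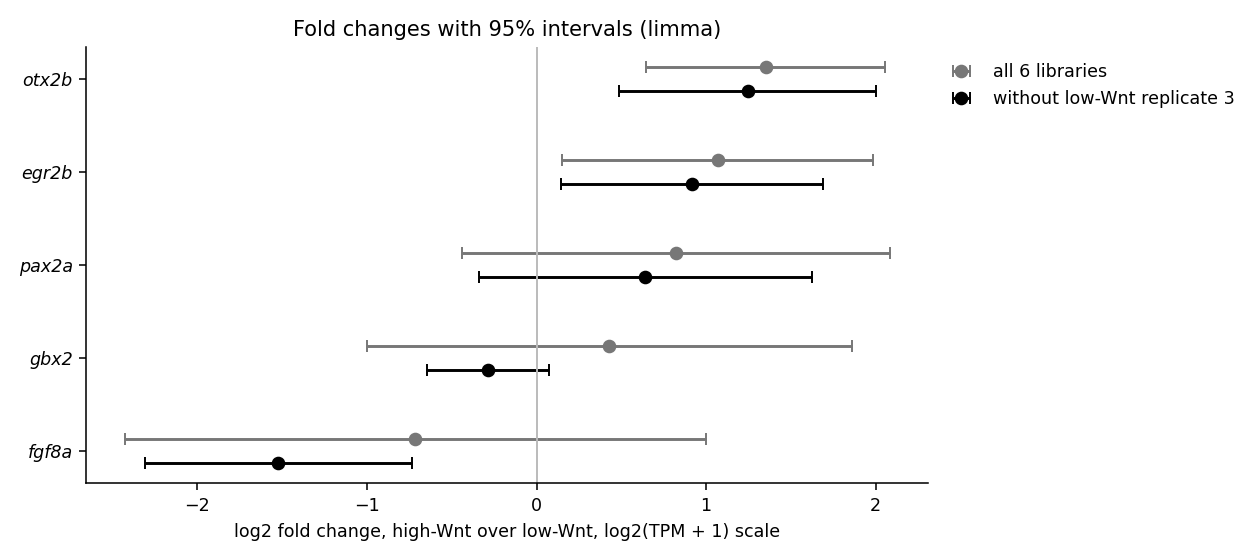
Log2 fold change of high-Wnt over low-Wnt cells (x axis, log2(TPM + 1) scale) of the 5 tested genes, with 95% intervals from limma, for all 6 libraries (grey) and without low-Wnt replicate 3 (black). Leaving out that library narrows the interval of gbx2, which then spans -0.65 to 0.07, and moves fgf8a to -1.52.

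In high-Wnt cells the order by mean TPM was gbx2, pax2a, fgf8a, egr2b, otx2b and eng2a. Neighbours in this order did not overlap except fgf8a and egr2b, and egr2b and otx2b.

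Because the shift of low-Wnt replicate 3 affected most genes, the members were also set against each other within each library. There, a scaling common to all genes of the library cancels. Departures of single genes from it, as for fgf8a, pax2a and egr2b in low-Wnt replicate 3, do not cancel. Of the 10 ratios between the 5 tested genes, 6 kept the populations apart across all 6 libraries, and 8 did so without low-Wnt replicate 3. Of the ratios of these genes to other tested genes detected in every library, 42.6% did not overlap with 6 libraries and 64.4% without low-Wnt replicate 3. These shares include the ratios of otx2b. Among the pairs without otx2b, only gbx2 with fgf8a and fgf8a with egr2b were separate with all 6 libraries, a smaller share than 42.6%. Without low-Wnt replicate 3, gbx2 with egr2b and pax2a with fgf8a joined them, a share near 64.4%. The number of separate pairs is thus not a result about the members. The 10 ratios share genes and are not independent, and this scale was chosen after seeing the data.

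All 4 ratios with otx2b on top were higher in high-Wnt cells, but otx2b was among the tested genes only through its level there, so these 4 of the 6 separate pairs repeat what its TPM shows. The ratio of otx2b to gbx2, the pair that meets at the midbrain-hindbrain border, was 0.15, 0.094 and 0.11 in high-Wnt libraries, against 0.027, 0.0035 and 0.016 in low-Wnt libraries. This held in low-Wnt replicate 3 as in the other low-Wnt libraries, although an otx2b TPM of 0.07 or 0.08 is only a few steps of 0.01 TPM above 0.

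The ratio of gbx2 to fgf8a was 4.56, 4.31 and 4.46 in high-Wnt libraries, against 2.64, 1.05 and 2.46 in low-Wnt libraries, so fgf8a was lower relative to gbx2 in every high-Wnt library. The ratio of fgf8a to egr2b was 1.78, 1.12 and 1.03 in high-Wnt libraries, against 4.95, 24.3 and 2.62 in low-Wnt libraries, with the nearest libraries of the populations at 1.78 and 2.62. These ratios kept the populations apart with low-Wnt replicate 3 included. The ratio of pax2a to fgf8a did so only without that library. It was 1.48, 1.84 and 2.09 in high-Wnt libraries, against 0.92, 0.10 and 1.54 in low-Wnt libraries.

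**Figure D3:**
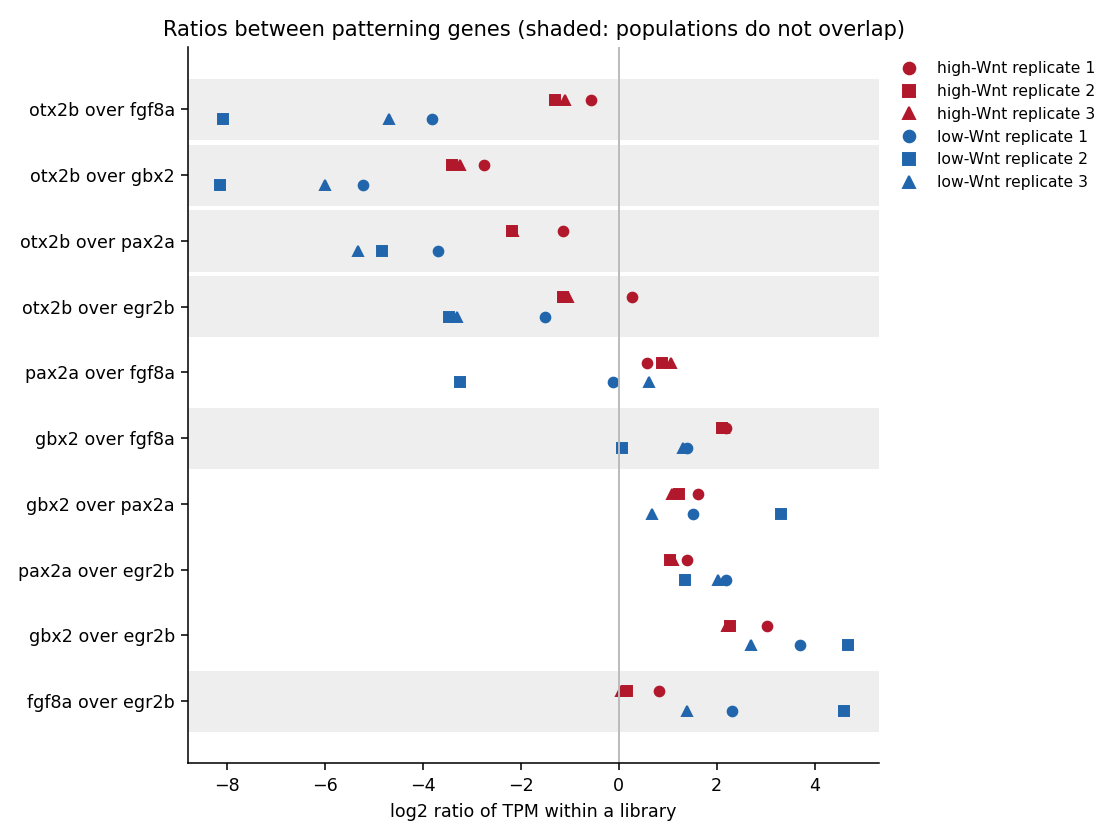
Log2 ratio of the TPM of 2 genes within a library (x axis) for the 10 pairs of the 5 tested genes (rows), with high-Wnt libraries in red above low-Wnt libraries in blue and marker shapes for replicates. Shaded rows are the 6 pairs whose populations do not overlap, among them all 4 with otx2b on top.

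The rank of each gene within its library gave a related picture. The share of the 14163 tested genes with a lower TPM than fgf8a was 29.9%, 31.7% and 32.1% in high-Wnt libraries, against 51.2%, 70.3% and 47.9% in low-Wnt libraries, so fgf8a ranked lower in every high-Wnt library. The ranks of otx2b did not overlap either, but they repeat its TPM, since it was tested only through its high-Wnt level. Those of gbx2, pax2a and egr2b did overlap. Ranks did not overlap for 27.1% of all tested genes (47.9% without low-Wnt replicate 3).

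Most of the 6 genes have a paralog from the teleost genome duplication, and the level was often carried by the paralog. For the Krox20 pair, egr2a had 46.5, 53.2 and 46.6 TPM in high-Wnt cells, against 29.3, 21.8 and 10.1 TPM in low-Wnt cells, and egr2b held 4.70% to 8.10% of the pair's TPM in high-Wnt libraries against 3.92% to 6.41% in low-Wnt libraries. Unlike egr2b, egr2a was DE without low-Wnt replicate 3, with a log2 fold change of 0.92 (standard error 0.17, limma adjusted p = 0.016), against 1.33 (limma adjusted p = 0.234) with all 6 libraries. The difference between the paralogs was not tested. Reads shared between close paralogs are divided by the quantification, so these shares are estimates.

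For the Otx2 pair, otx2a had 10.4, 15.2 and 13.4 TPM in high-Wnt cells, against 13.0, 7.64 and 6.33 TPM in low-Wnt cells, and was not DE. The populations overlapped for otx2a, whereas the otx2b share of the pair was 10.6% to 20.9% in high-Wnt libraries against 1.04% to 4.69% in low-Wnt libraries. Since otx2b was tested only through its high-Wnt level, this share largely repeats its TPM. The difference between these paralogs was not tested either. For the Engrailed 2 pair, eng2b had 1.78, 3.87 and 3.85 TPM in high-Wnt cells, against 0.11, 0.56 and 0.21 TPM in low-Wnt cells. The copy outside the set was thus the one detected, with a log2 fold change of 1.62 (limma adjusted p = 0.028) without low-Wnt replicate 3 and 1.66 (limma adjusted p = 0.091) with all 6 libraries. Like otx2b, eng2b reached 1 TPM only in high-Wnt libraries and was tested through them alone, and its call was lost there after quantile normalization (limma adjusted p = 0.065).

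For Fgf8 and Pax2 the members carried most of the level, since fgf8b did not exceed 0.51 TPM and pax2b did not exceed 1.96 TPM in any library.

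**Figure D4:**
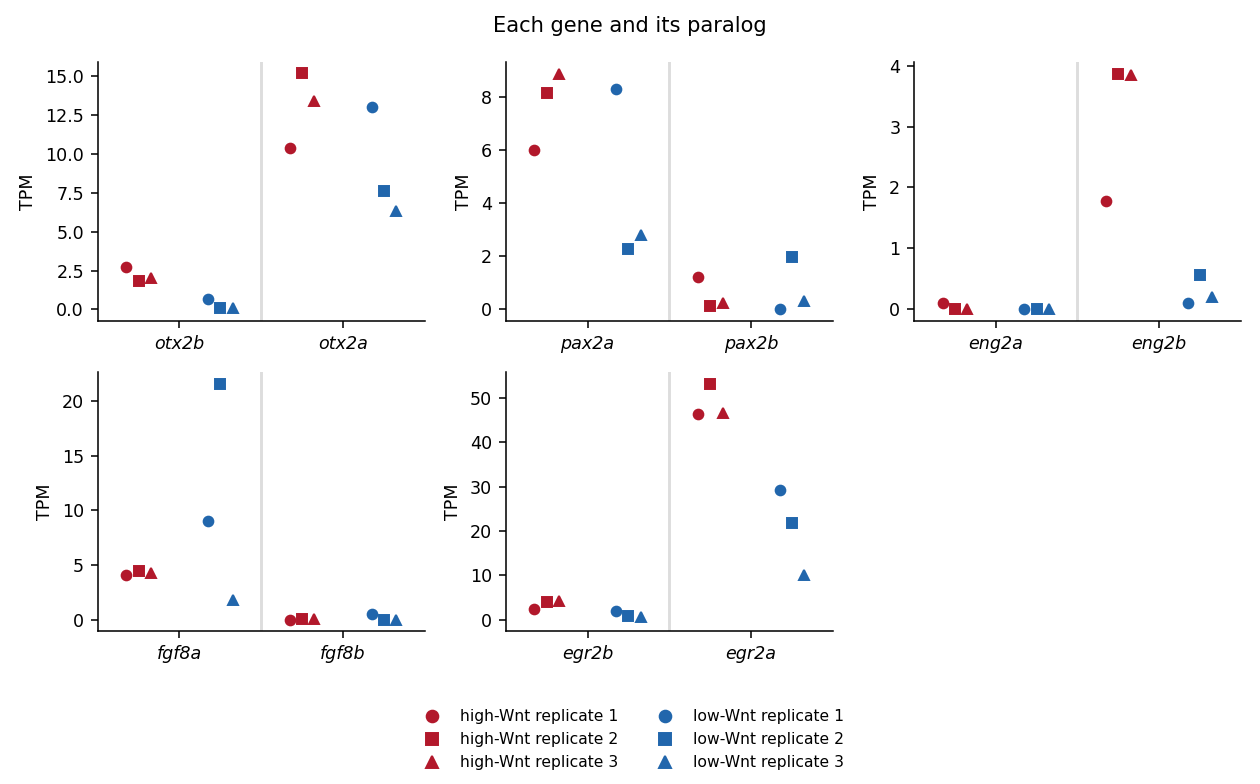
TPM (y axis, linear, one scale per pair) of 5 of the 6 genes (left in each panel) and their paralogs (right), with high-Wnt libraries in red to the left of low-Wnt libraries in blue and marker shapes for replicates. The paralogs egr2a, otx2a and eng2b lie above the members beside them, and fgf8b and pax2b below, except that 1 low-Wnt library has nearly equal pax2a and pax2b.

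Other genes of the same axis were taken from 4 lists of 58 matched genes, of which 47 were tested without low-Wnt replicate 3. There, 8 were higher and 1 was lower in high-Wnt cells. Among all tested genes 12.7% were DE, 7.17% higher and 5.57% lower, and these shares stand beside the counts of each list below. The 8 include eng2b, which was tested through its high-Wnt level alone. With all 6 libraries none of 43 tested was DE by limma (9 had an unadjusted p-value under 0.05, as did 14.2% of all tested genes).

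Of the 13 tested forebrain and midbrain regulators, 2 rose and 11 did not pass, with a median log2 fold change of 0.37. One of the SIX3 genes (ENSDARG00000054879), a homeodomain factor of the anterior forebrain and eye, had 7.57, 13.2 and 7.84 TPM in high-Wnt cells, against 1.21, 2.54 and 0.77 TPM in low-Wnt cells, and mab21l2, active in the eye and midbrain roof, had 48.4, 48.6 and 44.3 TPM in high-Wnt cells, against 20.3, 13.7 and 17.1 TPM in low-Wnt cells. Their log2 fold changes were 1.87 and 1.44 (limma adjusted p = 0.013 and 0.005) without low-Wnt replicate 3 and 2.09 and 1.43 (limma adjusted p = 0.115 and 0.124) with all 6 libraries. Neither gene overlapped between the populations, where 22.4% of all genes tested with 6 libraries lay apart with high-Wnt cells above. Both were named because they were DE, so this adds no support. The other SIX3 gene (ENSDARG00000058008) had 3.82, 2.96 and 2.87 TPM in high-Wnt cells, against 2.29, 2.59 and 0.20 TPM in low-Wnt cells. It was not DE in either fit, with a log2 fold change of 0.29 (limma adjusted p = 0.499) without low-Wnt replicate 3. The Iroquois gene irx7, the most abundant of the list after mab21l2, had 8.58 to 15.0 TPM in high-Wnt cells against 9.78 to 18.6 TPM in low-Wnt cells and was not DE.

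Of the 6 tested isthmic organizer genes, eng2b, tested through its high-Wnt level, was DE and 5 did not pass, with a median log2 fold change of -0.064. The most abundant was cnpy1, which supports FGF signaling at the zebrafish organizer, with 7.29 to 10.5 TPM in high-Wnt cells against 3.22 to 13.1 TPM in low-Wnt cells. The Gbx gene gbx1 had 3.70 to 4.66 TPM in high-Wnt cells against 1.73 to 7.59 TPM in low-Wnt cells, and neither was DE. The organizer signal wnt1 did not exceed 1.22 TPM in any library.

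Among genes induced by FGF signaling, 4 of 11 rose in high-Wnt cells without low-Wnt replicate 3, 7 did not pass and none fell, with a median log2 fold change of 0.52. The feedback inhibitors spry1, spry2 and spred2b and the ERK phosphatase gene dusp6 had log2 fold changes of 0.80, 0.77, 0.85 and 0.80 (limma adjusted p = 0.013, 0.034, 0.036 and 0.026). With all 6 libraries these were 1.18, 1.73, 1.32 and 1.62, and none passed (limma adjusted p = 0.259 to 0.350). For spry2 the values were 90.8, 83.2 and 76.0 TPM in high-Wnt cells, against 39.98, 58.7 and 5.70 TPM in low-Wnt cells. The most abundant, spry4, had 89.3, 97.2 and 90.5 TPM in high-Wnt and 67.0, 68.0 and 5.28 TPM in low-Wnt cells and did not pass (limma adjusted p = 0.053). The ETS factor genes etv4, etv5a and etv5b had log2 fold changes of -0.51, 0.52 and -0.42, against -0.24, 1.05 and 0.74 with all 6 libraries, and did not pass in either fit. Without low-Wnt replicate 3 the ligand fgf8a was lower in high-Wnt cells, and fgf3, a ligand of rhombomere 4, had 4.97, 4.97 and 3.72 TPM in high-Wnt and 2.67, 1.42 and 1.23 TPM in low-Wnt cells (log2 fold change 0.89, limma adjusted p = 0.085).

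Of the 17 tested hindbrain regulators, egr2a rose, znf703 fell and 15 did not pass, with a median log2 fold change of 0.027. The zinc finger gene znf703 (nlz1), which acts in hindbrain patterning in zebrafish, had 27.3, 31.8 and 30.7 TPM in high-Wnt cells, against 67.0, 68.2 and 8.85 TPM in low-Wnt cells. The log2 fold change of znf703 was -1.15 (limma adjusted p = 0.004) without low-Wnt replicate 3 and -0.22 (limma adjusted p = 0.878) with all 6 libraries. It thus had the same layout as fgf8a and gbx2, with the high-Wnt libraries between low-Wnt replicate 3 and the other low-Wnt libraries. The Hox cofactor gene pbx4 was the most abundant of the list, with 82.6, 96.0 and 88.5 TPM in high-Wnt and 75.1, 89.1 and 13.8 TPM in low-Wnt cells, and was not DE, nor was cyp26c1, which encodes a retinoic acid degrading enzyme.

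**Figure D5:**
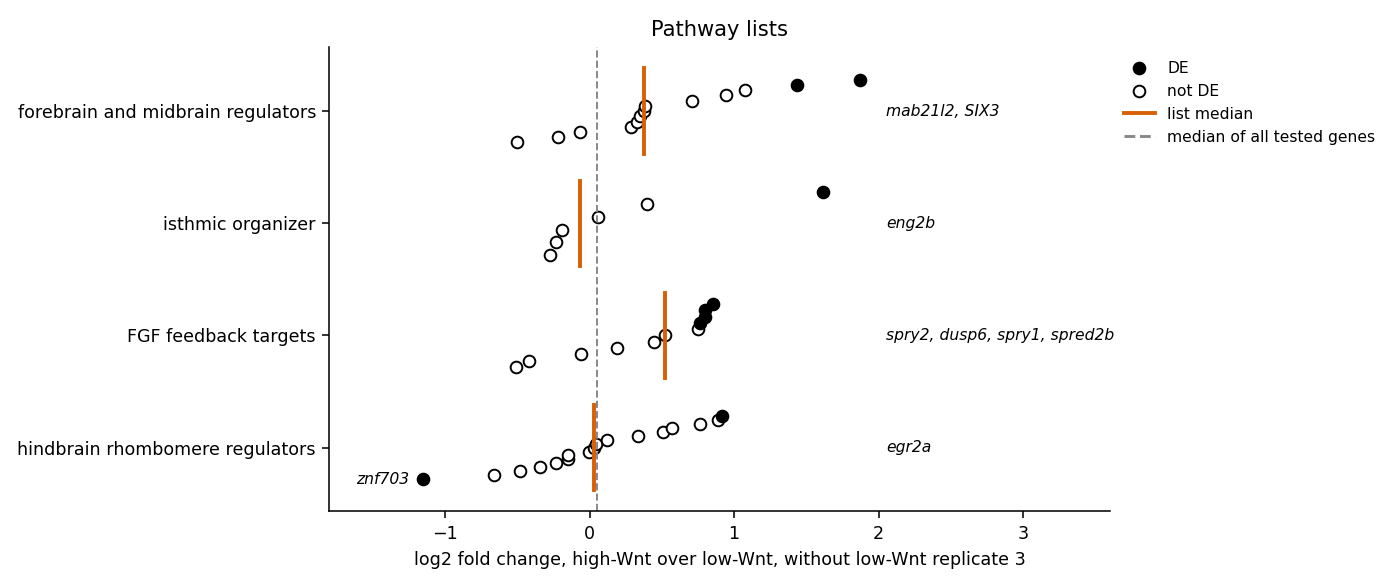
Log2 fold change of high-Wnt over low-Wnt cells without low-Wnt replicate 3 (x axis) for the tested genes of 4 lists (rows), with DE genes filled and named, other genes open, the median of each list in orange and the median of all tested genes (0.05) dashed. The DE genes are 8 on the higher side and znf703 on the lower side.

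Among genes used as readouts of canonical Wnt signaling, none of 7 tested was DE by limma in either fit. An unadjusted p-value under 0.05 was found for 0 of them with all 6 libraries and for 1 without low-Wnt replicate 3. Among all tested genes the shares were 14.2% and 31.3%. The 1 gene was znrf3, with a log2 fold change of 0.64 (limma adjusted p = 0.108) in that fit. The feedback inhibitor axin2 had 26.2, 20.4 and 18.0 TPM in high-Wnt cells, against 24.0, 23.2 and 1.47 TPM in low-Wnt cells. Its direction turned with 1 library, from a log2 fold change of 0.96 (limma adjusted p = 0.591) with all 6 libraries to -0.14 (limma adjusted p = 0.661) without low-Wnt replicate 3. The HMG-box factor gene lef1 had 30.5, 37.9 and 34.8 TPM in high-Wnt cells, against 33.6, 21.7 and 0.94 TPM in low-Wnt cells, with a log2 fold change of 1.62 (limma adjusted p = 0.477) with all 6 libraries and 0.33 (limma adjusted p = 0.319) without low-Wnt replicate 3. For both genes low-Wnt replicate 3 lay below every other library.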

How the data were processed

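Smart-seq2 reads of the 6 libraries were aligned by the authors with STAR to the GRCz11 build. Gene abundance was then estimated with RSEM, and the deposited table holds TPM for each Ensembl identifier. The annotation release is not given in the sources used here. The study's edgeR test needs counts and was not repeated. TPM keeps no depth, so no counting interval was computed.

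The populations were compared in limma 3.58.1 (R 4.3.3), after log2 transformation of TPM with a pseudocount of 1 (population as the only term, intensity trend, Benjamini-Hochberg adjustment, threshold 0.05). A gene was tested where its TPM was 1 or more in 3 libraries, or in 2 where a library was left out. The procedure was tested on simulated data in which no library was shifted as a whole. It was thus not tested under a shift like that of low-Wnt replicate 3. Of the identifiers, 28988 matched a symbol. Listed zebrafish symbols were matched exactly, by the same symbol in capitals, or by family symbol where 1 paralog remained. No coordinates are given, because the gene table is of another assembly.

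The members and lists were chosen with earlier results of these data known, and 1 gene of the set is not reported here. Named from each list were DE genes (up to 4, by fold change without low-Wnt replicate 3) and the 2 of highest mean TPM. Lists of cell type markers are given by counts, sums and single examples. Genes named beside these rules (wnt1, fgf3, etv4, etv5a, etv5b, znrf3, the SIX3 gene ENSDARG00000058008 and the marker genes) were chosen after their values were seen. Alternatives were another pseudocount, filters, normalizations, variance models, a replicate block and each library left out.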

Additional observations from a re-analysis of the deposited data

How the results depend on the processing

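With all 6 libraries, none of the 6 genes was DE under 7 of the 8 other settings, and sample quality weights gave 4 (otx2b, pax2a and egr2b higher, fgf8a lower) where 29.1% of all tested genes were then DE. Leaving out each library gave 0 to 2. Without low-Wnt replicate 3, 2 genes were DE, otx2b and fgf8a, as with median centring and with no variance trend. The calls of otx2b, which the filter kept through its high-Wnt level alone, add no support. A pseudocount of 0.1, a minimum mean TPM of 5 and quantile normalization left 1, fgf8a. None was DE with no filter on low values or with the replicate block, and a further library left out gave 0 to 3, with 0 for each high-Wnt library. Fits with 1 low-Wnt library left assume that it varies like the others. The 4 lists gave 0 DE genes with 6 libraries and 9 without low-Wnt replicate 3, and, chosen after seeing the data, 10 with quantile normalization and 9 with median centring in that fit.

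Of 126 values of single members under alternatives, 5 had the other sign. For gbx2 with 6 libraries these were -0.077 with quantile normalization, -0.17 with median centring and -0.23 with sample quality weights, and leaving out each library gave -0.29 to 0.81. For pax2a without low-Wnt replicate 3, a further library left out gave -0.11 to 1.40. Over all tested genes the log2 fold change had a median of 0.51 with 6 libraries, 0.02 after quantile normalization and 0.05 without low-Wnt replicate 3.

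Over all genes, 52 were DE with 6 libraries (71.2% higher), and 0 to 4128 under the alternatives (4128 with sample quality weights), with 52.0% higher after quantile normalization and 23.9% after median centring. Without low-Wnt replicate 3, 1912 were DE (56.3% higher), and 428 to 2414 under the alternatives, with 51.6% and 45.7% higher after those scalings. The replicate block gave 168 and 489 DE genes. Deviations of same-numbered libraries from their population mean correlated at 0.03, -0.01 and 0.14. The shift of low-Wnt replicate 3 weighs on all low-Wnt deviations, so these values cannot exclude pairs. The main fits did not take the numbers as pairs. The paper gives only an approximate depth per sample. The depth of each library is unknown, which limits what can be said of otx2b, eng2a and other genes under 1 TPM. A minimum mean TPM of 5 left out otx2b and egr2b, which have no value under it. The cause of these differences was not tested.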

Other observations

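The genes whose levels over the 6 libraries were most like each member were looked up by Pearson's r of log2(TPM + 1), as a description, since all points share the shift of low-Wnt replicate 3. For gbx2, 3273 tested genes reached an r of at least 0.95, led by CABLES2 (r = 0.9998) and SMAD1 (r = 0.9996). The other members had fewer such genes. For otx2b there were 252, with mmp25b (r = 0.996) the nearest with a symbol, and for egr2b 146, led by PLEKHO1 (r = 0.998) and ARGLU1 (r = 0.994). For pax2a there were 108, led by arhgap28 (r = 0.996) and ZBTB7B (r = 0.995), and for fgf8a 81, led by si:dkey-30f3.2 (r = 0.993) and MYLIP (r = 0.991). The pattern of gbx2 was thus shared by more genes than those of the other 4.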
